A study of Homo sapiens with 6 samples.

Results

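Antisense RNAs are transcripts made from the strand opposite to a named gene, and human gene nomenclature marks them with the suffix -AS and a number. They were examined here in tumorspheres of D283, an established line of medulloblastoma (MB) cells that shares features of Group 3 and Group 4 tumours, beside the gene that each is named after, the sense gene. Tumorspheres were given the siRNA s9931 against OTX2 (OTX2 KD, n = 3 arrays) or a nonsilencing siRNA (scramble, n = 3 arrays), and all were kept as floating spheres in medium with EGF and bFGF. The model is limited to 1 cell line and 1 siRNA sequence. RNA was hybridized to Affymetrix HuGene 2.0 ST arrays, on which a transcript cluster is the set of probes summarized to 1 value, given on a log2 scale. Antisense RNAs were chosen by name and by signal, as genes whose only symbol on a cluster ended in -AS1, -AS2 or -AS3 and whose mean log2 value over the 6 arrays was at least 4.0, with the brightest cluster kept for each gene. This rule did not use the difference between OTX2 KD and scramble, but it was set with earlier results of these data known. This gave 163 antisense RNAs (158 -AS1, 3 -AS2 and 2 -AS3) of 475 antisense genes named on the array, among 14884 named genes and 53617 clusters. The sense gene was measured by a cluster of its own for 112 of the 163, and that of the other 51 was not analysed here.

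Antisense RNAs form a heterogeneous class of mostly long noncoding RNAs. Some start close to the sense promoter and run away from it on the other strand, so that both RNAs can be made from a shared open promoter region, and others start inside or beyond the sense gene and overlap its exons or introns. Members of the class are known to act in cis on the chromatin, splicing or stability of the sense RNA, while for many no function is known. Because of this, an antisense RNA can move together with its sense gene, against it, or apart from it. The 4 outcomes recorded below are a pair called in both RNAs, in the antisense RNA alone, in the sense gene alone, or in neither.

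Of the 112 pairs, 81 could be placed with RefSeq promoter windows of build GRCh38.p14, and in all 81 the RNAs were annotated on opposite strands. The region between the starts of both RNAs is shown for 3 pairs whose starts lay close together and which differed in outcome. It is printed along the strand of the antisense RNA, with the bases from the sense start to the antisense start in capitals and 20 bases on each side in lower case. CCNT2-AS1 and the gene of cyclin T2 (chr2:134918586-134918842, minus strand, starts 216 bases apart) were both higher in OTX2 KD. RBM26-AS1 (chr13:79406235-79406329, plus strand, 54 bases apart) was higher while its sense gene, of an RNA-binding protein, was not called. URB1-AS1 (chr21:32392992-32393153, plus strand, 121 bases apart) was not called while its sense gene, of a ribosome assembly factor, was lower.
CCNT2-AS1: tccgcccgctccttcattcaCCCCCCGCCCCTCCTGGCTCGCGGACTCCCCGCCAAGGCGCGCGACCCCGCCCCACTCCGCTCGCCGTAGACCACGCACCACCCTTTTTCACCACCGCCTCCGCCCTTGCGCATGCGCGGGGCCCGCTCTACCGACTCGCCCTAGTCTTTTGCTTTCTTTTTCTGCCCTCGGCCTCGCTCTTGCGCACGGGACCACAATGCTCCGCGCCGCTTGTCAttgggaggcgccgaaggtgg
RBM26-AS1: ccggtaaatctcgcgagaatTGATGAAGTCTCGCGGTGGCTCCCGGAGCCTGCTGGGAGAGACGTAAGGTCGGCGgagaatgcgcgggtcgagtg
URB1-AS1: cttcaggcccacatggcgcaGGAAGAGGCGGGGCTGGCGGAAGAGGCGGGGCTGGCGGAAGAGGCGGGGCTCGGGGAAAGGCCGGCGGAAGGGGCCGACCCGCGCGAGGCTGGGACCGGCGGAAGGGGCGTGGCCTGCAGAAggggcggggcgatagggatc

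OTX2 is a homeodomain transcription factor that binds TAATCC and TAATCT. Both motifs were searched on both strands in RefSeq promoter windows, which run from 250 bases before each start to 50 after it. Stretches are shown for the 4 called antisense RNAs with a match, with the match in capitals. The match began 43 bases after the start of MED4-AS1 (chr13:48077168-48077186, plus strand), and 110, 181 and 229 bases before the starts of PSMD6-AS2 (chr3:64003900-64003929, plus strand), STARD4-AS1 (chr5:111512033-111512062, plus strand) and SVIL-AS1 (chr10:29409293-29409322, plus strand), in that order.
MED4-AS1: agtccgttgacaTAATCTc
PSMD6-AS2: ccagacccggtcTAATCTcttcctttcttt
STARD4-AS1: ccaaatcaagcgGGATTAccaccgcccctc
SVIL-AS1: tttaaggtaacaGGATTAaagcacagcgct
In the windows of STARD4-AS1 and SVIL-AS1 the match is TAATCC on the opposite strand, which reads GGATTA here. MED4-AS1 was lower and the other 3 were higher in OTX2 KD.

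OTX2 RNA itself was 9.62, 9.57 and 9.57 on the OTX2 KD arrays, against 10.56, 10.56 and 10.55 on the scramble arrays, a log2 fold change of -0.97 ± 0.073 (SE; limma, adjusted p = 8.7e-05). Over all clusters r was 0.990 to 0.993 between arrays within a group and 0.959 to 0.965 between an OTX2 KD and a scramble array. Of 12 measured markers of Group 3 and Group 4 MB, 3 rose and 6 fell, and their mean level was 6.47 to 6.57 on OTX2 KD arrays against 6.77 to 6.91 on scramble arrays. Of all named genes, each by its brightest cluster, 39.8% were called (16.6% higher and 23.2% lower). At a mean level of at least 4.0, 54.8% were called (21.8% higher and 33% lower). Of the 15 measured markers of astrocytes, oligodendrocytes, endothelium, leukocytes and mesenchyme, 10 had mean levels below 4.0 and 2 were called, the microglial and macrophage gene CD68 (log2 fold change 1.13) and the glial lineage factor OLIG2 (0.78), both higher in OTX2 KD. Over these 5 lists the mean level ran from 2.26 to 4.93 on OTX2 KD arrays and from 2.00 to 4.36 on scramble arrays. Their part in the changes below was not tested. In bulk RNA, fewer cells that make a transcript and less of it per cell cannot be told apart.

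A minority of the antisense RNAs changed with OTX2 knockdown. Of 163 antisense RNAs, 59 (36.2%) passed an adjusted p below 0.05, 31 of them higher and 28 lower in OTX2 KD, and 104 did not pass. Over all clusters 27.9% passed (14.8% higher and 13.1% lower), and over the 23615 clusters with a mean level of at least 4.0, to which the same level limit applied, 49.6% passed (24% higher and 25.7% lower). A change of at least 2-fold was seen for 5 antisense RNAs that were higher and 8 that were lower, against 6.74% of all clusters and 13.4% of those above the level limit. OTX2 KD and scramble values were fully separated for 84 antisense RNAs, beside 42% of all clusters and 65.6% of clusters above the limit. Set beside named genes, with 1 cluster each and the same level limit, these shares were 54.8% called (21.8% higher and 33% lower), 15.7% called with at least 2-fold change and 71.4% fully separated. The median log2 fold change was 0.06 over the antisense RNAs and 0.05 over all clusters. It was 0.03 over the clusters above the limit and -0.06 over the named genes above it. In size, without regard to sign, it was 0.228 over the antisense RNAs and 0.355 over the clusters above the limit.

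The share that changed varied with level. Between 4.0 and 4.5 log2 units 32.8% of 58 antisense RNAs were called, beside 27.9% of all clusters in that range. From 4.5 to 5 it was 25.6% of 39 beside 37.4%, and from 5 to 6 it was 38.3% of 47 beside 51.8%. Among the 19 antisense RNAs at 6 or more it was 63.2% beside 61.6%. For each of the 104 antisense RNAs that did not pass, the 95% interval of the log2 fold change lay inside -1 to 1, so that a change of 2-fold or more was outside it. Their median SE was 0.106.

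**Figure D1:**
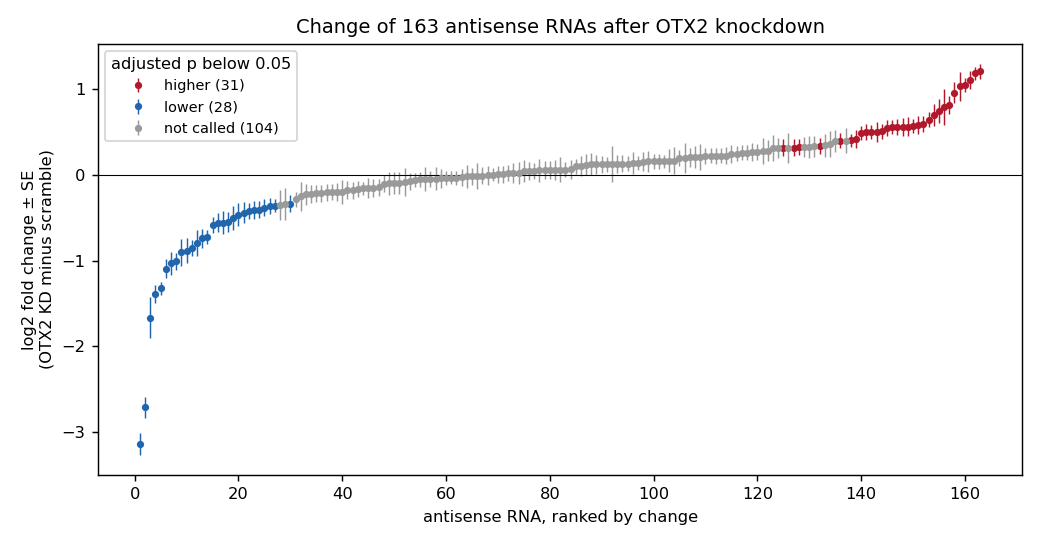
Log2 fold change (OTX2 KD minus scramble) of each of the 163 antisense RNAs, ranked, with error bars of 1 SE. The 31 antisense RNAs called higher reach 1.21, the 28 called lower reach -3.14, and the 104 not called lie within 0.40 of 0, interleaved with the smaller called changes.

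The level limit was set on the mean of all 6 arrays, so that an antisense RNA near it could enter through 1 group alone. In 13 of the 163 the OTX2 KD mean was below 4.0 and the scramble mean was not, and 10 of these were called lower. In 8 the OTX2 KD mean reached 4.0 and the scramble mean did not, and 5 of these were called higher. Of the 142 with both means at or above 4.0, 26 were higher and 18 lower. The candidates just outside the limit were LPP-AS2 (log2 fold change -0.65), RPH3AL-AS1 (-0.06) and MKNK1-AS1 (-0.03), with mean levels of 3.99 to just under 4.0, and those just inside were SPAG5-AS1 (-0.05), IQCH-AS1 (-0.15) and TENM3-AS1 (-0.85), with mean levels of 4.01 to 4.02. Among the 312 antisense genes below the limit, 18 were higher and 10 lower (8.97% called). Dim clusters of all kinds were called less often too. Of all 53617 clusters 14966 were called, and 11724 of these were among the 23615 at or above the limit.

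The largest fall among antisense RNAs was that of TLR8-AS1 (cluster 17109116), which lies opposite to the gene of an endosomal receptor for single-stranded RNA. It measured 2.51, 2.49 and 2.70 in OTX2 KD, against 5.49, 5.92 and 5.73 in scramble (log2 fold change -3.14 ± 0.13 (SE), adjusted p = 7.65e-06). SLC60A1-AS1 (cluster 16698502), opposite to the gene of a membrane transporter, measured 3.70, 3.96 and 3.62 in OTX2 KD against 6.33, 6.59 and 6.50 in scramble (-2.71 ± 0.12, adjusted p = 9.47e-06). In OTX2 KD both were below the level limit of 4.0 on every array, and the groups lay far apart. With the OTX2 KD mean set to that limit, TLR8-AS1 was 3.28-fold lower and SLC60A1-AS1 5.55-fold lower. Such values, here and below, compare group means without their error, and the limit is not a measured detection floor. Set against the limit in the same way, MED4-AS1 and RASSF8-AS1, both called at least 2-fold lower from their measured values, were 1.92-fold and 1.71-fold lower.

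MED4-AS1, opposite to the gene of a Mediator subunit, was 3.38, 3.07 and 3.37 in OTX2 KD and 4.98, 4.41 and 5.42 in scramble (log2 fold change -1.67 ± 0.24 (SE), adjusted p = 0.00183). Its scramble values spread over a whole log2 unit, yet the lowest stood above the highest OTX2 KD value. ATP2A1-AS1 was 4.43, 4.16 and 4.29 in OTX2 KD and 5.81, 5.63 and 5.63 in scramble (-1.39 ± 0.10, adjusted p = 7.76e-05). VPS9D1-AS1, a long noncoding RNA known as MYU and described as a MYC target in colorectal cancer, was 4.72, 4.72 and 4.77 in OTX2 KD and 6.03, 6.11 and 6.04 in scramble (-1.32 ± 0.076, adjusted p = 2.63e-05). Replicates of VPS9D1-AS1 were the tightest of these, with SDs of 0.033 in OTX2 KD and 0.041 in scramble. DLGAP1-AS1 (-1.10), ARHGAP5-AS1 (-1.03) and RASSF8-AS1 (-1.01) were also at least 2-fold lower, and VLDLR-AS1 (-0.90) and FEZF1-AS1 (-0.89) completed the 10 largest falls. In all 10 the groups did not overlap, but the 10 were chosen as the largest called falls, so that this separation adds no support. Of named genes above the level limit, 71.4% were fully separated too. The OTX2 KD means of DLGAP1-AS1 and VLDLR-AS1 were also below 4.0. Set against that limit they were 2.05-fold and 1.64-fold lower.

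The largest rise was that of TPT1-AS1 (cluster 16774515), with 6.32, 6.20 and 6.27 in OTX2 KD against 4.98, 5.18 and 5.01 in scramble (log2 fold change 1.21 ± 0.089 (SE), adjusted p = 7.87e-05), or 2.31-fold higher. THUMPD3-AS1 (cluster 16950519), opposite to the gene of a tRNA methyltransferase, measured 6.97, 6.90 and 6.97 in OTX2 KD and 5.75, 5.79 and 5.76 in scramble (1.18 ± 0.075, adjusted p = 4.04e-05). These rises were smaller than the largest falls, but in both the groups were separated by about a log2 unit with close replicates. SH3BP5-AS1 was 6.67, 6.73 and 6.83 in OTX2 KD and 5.48, 5.76 and 5.67 in scramble (1.11 ± 0.10, adjusted p = 0.000219). LHX4-AS1, opposite to the gene of a LIM homeodomain factor of the pituitary and spinal cord, was 6.55, 6.60 and 6.46 in OTX2 KD and 5.42, 5.54 and 5.48 in scramble (1.05 ± 0.082, adjusted p = 9.99e-05). ZEB2-AS1, known to lie across the start of the gene of the repressor ZEB2, was 5.53, 5.29 and 4.87 in OTX2 KD and 4.29, 4.26 and 4.05 in scramble (1.03 ± 0.17, adjusted p = 0.00352). These 5 were the only antisense RNAs above the limit that were at least 2-fold higher. PAXBP1-AS1 (0.96), PSMD6-AS2 (0.82), ERCC6L2-AS1 (0.79), LBX1-AS1 (0.75) and DACT3-AS1 (0.70) followed, again without overlap between the groups. As with the falls, this separation adds no support. The scramble means of PAXBP1-AS1 (3.96), ERCC6L2-AS1 (3.71), LBX1-AS1 (3.66) and DACT3-AS1 (3.80) were below 4.0, so that these reached the limit through OTX2 KD alone. With the scramble mean set to that limit they were 1.89-fold, 1.42-fold, 1.33-fold and 1.42-fold higher, in that order.

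**Figure D2:**
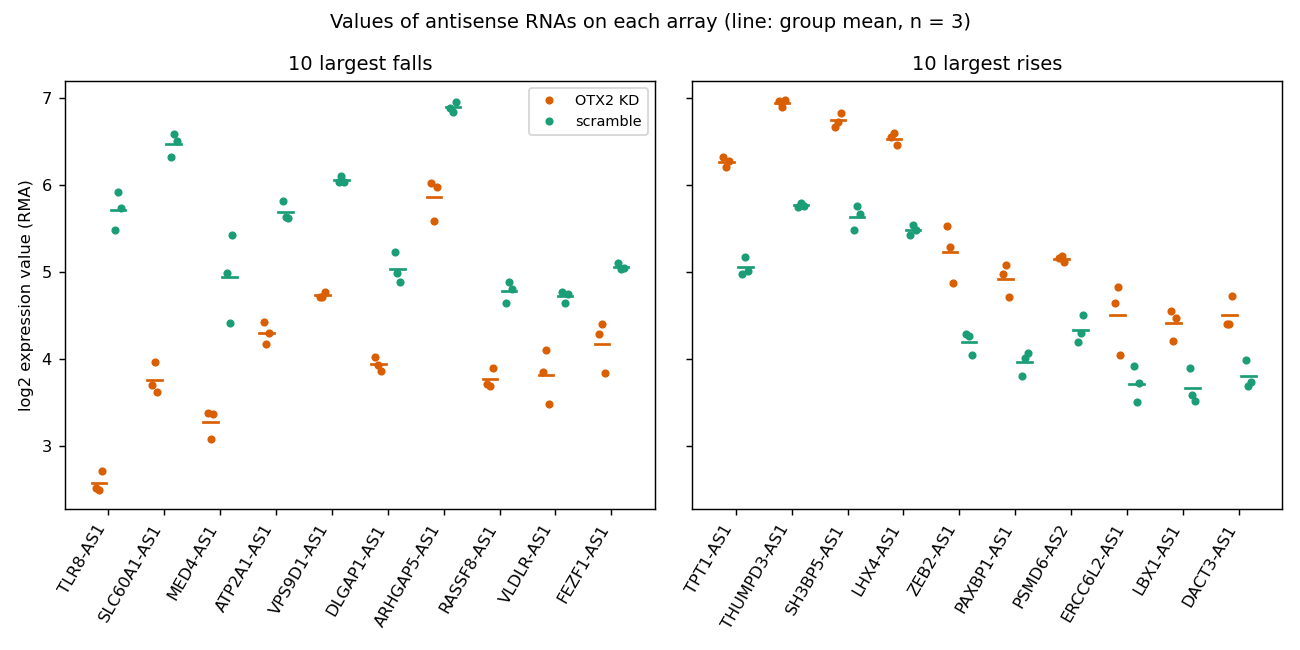
Log2 expression value on each array for the 10 largest falls and the 10 largest rises among the antisense RNAs called, with the 3 OTX2 KD arrays left of the 3 scramble arrays and a line at each group mean. In every one the OTX2 KD and scramble points do not overlap, from TLR8-AS1 (2.57 against 5.71) to TPT1-AS1 (6.27 against 5.06). All were chosen as the largest called changes, and 71.4% of named genes above the level limit were separated too.

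The 5 antisense RNAs of highest mean level were ASB16-AS1, ZNF667-AS1, EPB41L4A-AS1, PRRT3-AS1 and SVIL-AS1. ASB16-AS1 was 7.30, 7.42 and 7.30 in OTX2 KD and 7.48, 7.41 and 7.28 in scramble, with overlapping groups (log2 fold change -0.05, 95% interval -0.26 to 0.16). ZNF667-AS1 was 7.52, 7.56 and 7.57 in OTX2 KD and 7.01, 6.88 and 7.03 in scramble, and rose (0.58 ± 0.082 (SE), adjusted p = 0.00173). Of the other 3, SVIL-AS1 rose (0.56), PRRT3-AS1 fell (-0.55) and EPB41L4A-AS1 was not called (0.26, adjusted p = 0.0721).

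For some of these genes the array held a further cluster, and the choice of the brightest mattered for a few. GAS6-AS1 had a log2 fold change of 0.00 in its brightest cluster and -0.60 (adjusted p = 0.00796) in its other one. LOXL1-AS1, PDCD4-AS1, RBM26-AS1 and ZEB2-AS1 were called in the brightest cluster only, and their other clusters had mean levels between 1.28 and 3.32. Both clusters were called in the same direction for ASMTL-AS1, ERCC6L2-AS1 and VLDLR-AS1.

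The question for the 112 pairs was whether antisense RNA and sense gene changed alike. Of the 112 sense genes, 60 (53.6%) were called, 28 higher and 32 lower in OTX2 KD, and 81 were fully separated between groups. With each array centred on the common median the split was 18 higher and 40 lower. Of the brightest clusters of all named genes, whatever their level, 39.8% were called and 55.5% were fully separated between groups. At a mean level of at least 4.0, which 96 of the 112 sense genes reached, these shares were 54.8% and 71.4%. Both RNAs of a pair were called in 25 pairs, in the same direction in 20 (14 lower and 6 higher) and in opposite directions in 5. The sense gene alone was called in 35 pairs, the antisense RNA alone in 17, and neither in 35.

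A call of one RNA and not of the other does not show that they changed unequally, so the difference between both log2 values was tested within arrays. The change was unequal in 62 of the 112 pairs (55.4%), beside 48.2% of all 313 pairs on the array whatever their level. It was unequal in 29 of the 35 pairs with the sense gene alone called, in 12 of the 17 with the antisense RNA alone, in 7 of the 35 with neither, in 9 of the 20 called in the same direction and in all 5 called in opposite directions. No level limit was set for the sense genes, and 16 of the 112 had a mean level below 4.0, where a missing call or a difference says little about the sense gene. Of the 96 pairs with a sense gene at 4.0 or more, 55 were unequal, and of the 12 such pairs with the antisense RNA alone called, 8 were. The antisense clusters of the 112 pairs were dimmer, with a median level of 4.72 against 5.78 for the sense genes. Over all clusters the median size of the log2 fold change was 0.227 at levels of 4.0 to 4.5 and 0.43 at 6 or more. The part of level in the unequal changes was not tested. Across the 112 pairs the log2 fold changes of antisense RNA and sense gene correlated with Pearson's r = 0.385 and a Spearman correlation of 0.381, and 76 had the same sign. Over all 313 pairs, whatever their level, the correlations were 0.324 and 0.271, and 190 had the same sign. These values describe pairs measured on the same 6 arrays, which are not independent replicates.

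**Figure D3:**
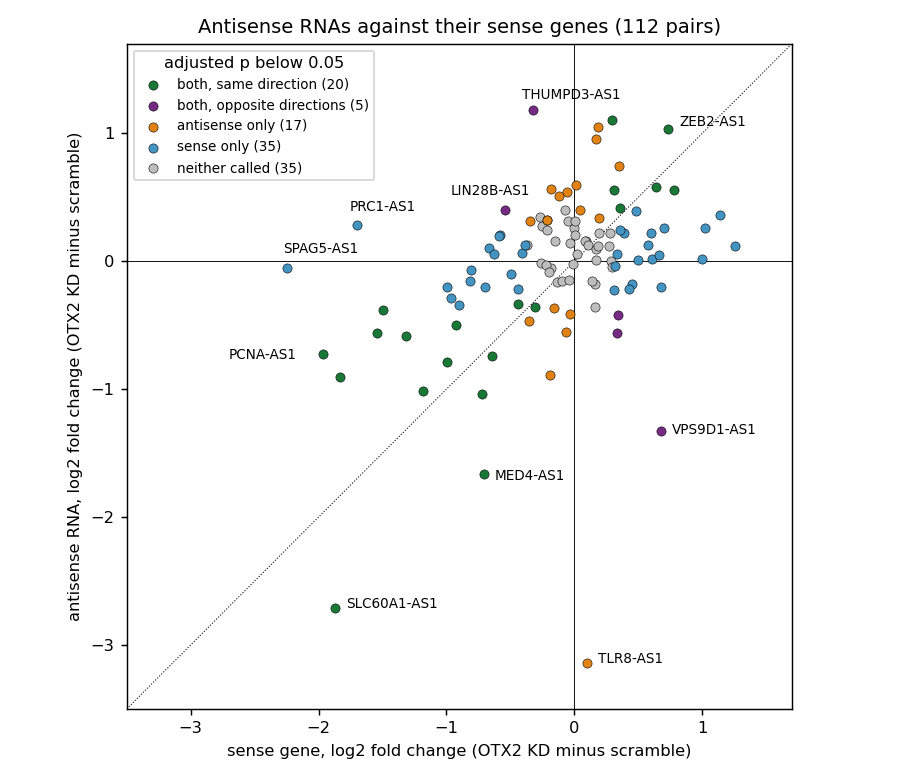
Log2 fold change (OTX2 KD minus scramble) of each antisense RNA (vertical axis) and of its sense gene (horizontal axis) for 112 pairs, coloured by which RNA was called, with a dotted line of equal change. The 14 pairs lower in both RNAs lie at the lower left, while TLR8-AS1 (-3.14 against 0.10 for TLR8) and SPAG5-AS1 (-0.05 against -2.25 for SPAG5) lie along the axes.

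In 14 pairs both RNAs fell. SLC60A1-AS1, whose values stand above, fell more than its sense gene, with a difference of -0.84 (antisense minus sense log2 fold change, 95% interval -1.16 to -0.52). SLC60A1 was 4.98, 5.41 and 5.31 in OTX2 KD and 7.07, 7.06 and 7.19 in scramble (-1.87 ± 0.12 (SE)). MED4-AS1 likewise fell more than MED4, with a difference of -0.96 (-1.36 to -0.57), and MED4 was 7.07, 6.99 and 7.13 in OTX2 KD and 7.79, 7.71 and 7.81 in scramble (-0.70 ± 0.082). Both antisense RNAs were below 4.0 on every OTX2 KD array, where the size of a fall is less certain.

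The opposite held for PCNA-AS1, which was 4.70, 4.67 and 4.60 in OTX2 KD and 5.32, 5.39 and 5.43 in scramble (log2 fold change -0.72 ± 0.079 (SE), adjusted p = 0.000495). Its sense gene PCNA, the sliding clamp of DNA replication, was 7.23, 6.88 and 7.05 in OTX2 KD and 9.08, 8.94 and 9.03 in scramble (-1.97 ± 0.11, adjusted p = 2.31e-05), so that the antisense RNA fell by less, with a difference of 1.24 (95% interval 0.93 to 1.55). VLDLR-AS1 also fell by less than VLDLR, a receptor for reelin and lipoproteins, with a difference of 0.93 (0.58 to 1.28), and VLDLR was 5.59, 5.55 and 5.56 in OTX2 KD and 7.37, 7.51 and 7.34 in scramble (-1.84 ± 0.083). The antisense RNAs of LIMD1 (a LIM domain scaffold), PDCD4 (an inhibitor of translation initiation), LRP4 (the agrin receptor) and PXN (paxillin of focal adhesions) also fell by less than their sense genes, with differences of 1.11, 0.99, 0.74 and 0.43. The OTX2 KD means of VLDLR-AS1 (3.81) and LRP4-AS1 (3.92) were below the level limit of 4.0. The sizes of their falls, and so of these differences, are less certain. The cluster of PCNA-AS1 was also dimmer than that of PCNA (mean levels 5.02 and 8.04), and the part of level in their difference was not tested. In the other 6 pairs the difference did not pass the test. These were ARHGAP5 (-1.03 for the antisense RNA and -0.72 for the sense gene), RASSF8 (-1.01 and -1.19), TMPO of the nuclear lamina (-0.79 and -0.99), LOXL1, a lysyl oxidase (-0.74 and -0.64), RAMP2 (-0.36 and -0.31) and PARD6G (-0.34 and -0.44). The pairs of LIMD1, PXN, RAMP2 and PARD6G were no longer called in both RNAs with the replicate block or with some arrays left out.

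Both RNAs rose in 6 pairs, none of which reached a 2-fold rise in both. CCNT2-AS1 was 5.41, 5.32 and 5.30 in OTX2 KD and 4.85, 4.73 and 4.77 in scramble (log2 fold change 0.56 ± 0.081 (SE), adjusted p = 0.00189), and CCNT2, a subunit of the elongation factor P-TEFb, was 7.19, 7.18 and 7.16 in OTX2 KD and 6.19, 6.54 and 6.46 in scramble (0.78 ± 0.11, adjusted p = 0.00141). Their difference of -0.22 (95% interval -0.54 to 0.10) did not pass the test. ZEB2, a repressor of the epithelial state that is active in neural crest and neurons, was 6.01, 6.01 and 5.96 in OTX2 KD and 5.23, 5.24 and 5.30 in scramble (0.74 ± 0.075, adjusted p = 0.000346). For ZEB2 the difference between antisense RNA and sense gene was 0.30 (-0.06 to 0.65). FRMD6 (0.58 for the antisense RNA and 0.64 for the sense gene), SOCS2, a suppressor of cytokine signalling (0.42 and 0.36), and SVIL, an actin-binding protein (0.56 and 0.31), also rose in both RNAs, and their differences did not pass the test. In SH3BP5 the antisense RNA rose more (1.11 and 0.29), with a difference of 0.81 (0.50 to 1.13). The pairs of SH3BP5 and SVIL were no longer called in both RNAs with the replicate block or with median centring, that of SOCS2 with median centring, and all 3 with some arrays left out.

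In 5 pairs antisense RNA and sense gene were called in opposite directions. VPS9D1-AS1 was lower (log2 fold change -1.32), while VPS9D1 was 5.30, 5.37 and 5.49 in OTX2 KD and 4.93, 4.65 and 4.53 in scramble (0.68 ± 0.12 (SE), adjusted p = 0.005). The difference of -2.01 (95% interval -2.32 to -1.69) was the widest of these 5. DPP10-AS1 was 3.99, 3.83 and 4.09 in OTX2 KD and 4.28, 4.67 and 4.63 in scramble (-0.56), and DPP10, an auxiliary subunit of potassium channels, was 5.51, 5.52 and 5.40 in OTX2 KD and 5.13, 5.13 and 5.17 in scramble (0.33). CIRBP-AS1 was 4.52, 4.50 and 4.52 in OTX2 KD and 4.92, 4.80 and 5.09 in scramble (-0.42), and CIRBP, a cold-inducible RNA-binding protein, was 9.62, 9.42 and 9.56 in OTX2 KD and 9.13, 9.20 and 9.24 in scramble (0.34). The differences of these pairs were -0.89 (-1.22 to -0.56) and -0.76 (-1.06 to -0.46). The OTX2 KD mean of DPP10-AS1 (3.97) was below the level limit of 4.0, which it reached through scramble (4.53) alone. The size of its fall, and so of its difference from DPP10, is less certain.

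The other 2 of these pairs had a higher antisense RNA and a lower sense gene. LIN28B-AS1 was 6.57, 6.59 and 6.62 in OTX2 KD and 6.14, 6.16 and 6.27 in scramble (log2 fold change 0.40, adjusted p = 0.00781), and LIN28B, the inhibitor of let-7 microRNA processing, was 5.77, 5.56 and 5.91 in OTX2 KD and 6.33, 6.07 and 6.46 in scramble (-0.54, adjusted p = 0.0223). Beside the rise of 1.18 of THUMPD3-AS1, THUMPD3 was 6.78, 6.56 and 6.79 in OTX2 KD and 7.04, 6.99 and 7.06 in scramble (-0.32, adjusted p = 0.0372). The groups did not overlap in any of these RNAs, but all were chosen as called, so that this separation adds no support. Of named genes above the level limit, 71.4% were fully separated too. Opposite calls were often lost with an array left out. Only VPS9D1 kept both calls under every alternative and with any array left out. The number of such pairs was 1, 2 and 3 without OTX2 KD replicates 1, 2 and 3, and 2, 2 and 1 without scramble replicates 1, 2 and 3, where each fit had 1 array fewer. Of the 20 pairs called in the same direction 13 kept both calls throughout.

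**Figure D4:**
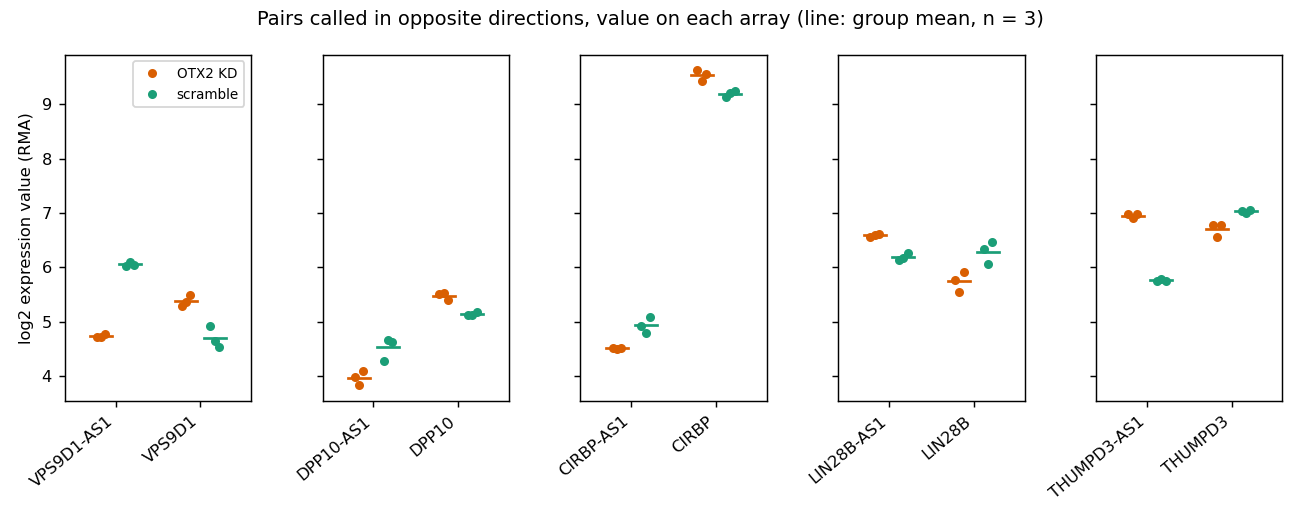
Log2 expression value on each array for the 5 pairs called in opposite directions, with the antisense RNA left of its sense gene, OTX2 KD left of scramble, and a line at each group mean. VPS9D1-AS1, DPP10-AS1 and CIRBP-AS1 were lower and LIN28B-AS1 and THUMPD3-AS1 higher in OTX2 KD, each with its sense gene the other way.

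In 17 pairs the antisense RNA was called and the sense gene was not. TLR8 was 2.30, 2.20 and 2.13 in OTX2 KD and 2.18, 2.10 and 2.05 in scramble, a dim signal below the level limit on all arrays, so that the pair does not show whether the sense gene changed. LHX4 was 5.88, 5.88 and 5.86 in OTX2 KD and 5.76, 5.59 and 5.72 in scramble (log2 fold change 0.18, adjusted p = 0.152), and its difference from LHX4-AS1 was 0.87 (0.57 to 1.17). PAXBP1-AS1 (0.96 against 0.17 for PAXBP1) and RBM26-AS1 (0.56 against -0.18 for RBM26) also rose apart from their sense genes, with differences of 0.79 and 0.75. FEZF1-AS1 fell (-0.89) beside a value of -0.19 for FEZF1, a zinc finger factor of the forebrain, with a difference of -0.70 (-1.02 to -0.37). In 5 of the 17 pairs, those of A1BG-AS1, MELTF-AS1, MZF1-AS1, TMEM44-AS1 and ZNF674-AS1, the difference did not pass.

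In 35 pairs the sense gene was called and the antisense RNA was not. The following were chosen after their values were seen, as the largest differences of this kind. SPAG5-AS1 was 3.92, 4.11 and 3.93 in OTX2 KD and 4.06, 4.01 and 4.04 in scramble (log2 fold change -0.05 ± 0.086 (SE), adjusted p = 0.711), close to the level limit. SPAG5, or astrin of the mitotic spindle, was 5.91, 5.34 and 5.65 in OTX2 KD and 7.91, 7.92 and 7.81 in scramble (-2.25 ± 0.15, adjusted p = 4.59e-05), and the difference was 2.19 (95% interval 1.83 to 2.56). PRC1-AS1 was 4.44, 4.29 and 4.05 in OTX2 KD and 4.12, 3.90 and 3.93 in scramble (0.28 ± 0.12, adjusted p = 0.14), with overlapping groups. PRC1, which bundles the microtubules of the dividing spindle, was 6.31, 6.30 and 6.19 in OTX2 KD and 7.87, 8.05 and 7.99 in scramble (-1.70 ± 0.087, adjusted p = 1.68e-05), with a difference of 1.98 (1.66 to 2.30). In these pairs a large fall of a mitotic gene was accompanied by no call of the antisense RNA.

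Antisense RNAs not called beside a sense gene that rose included ZSWIM8-AS1 (log2 fold change 0.12 against 1.26 for ZSWIM8, a receptor subunit of a ubiquitin ligase), JMJD1C-AS1 (0.36 against 1.14 for JMJD1C of the histone demethylase family), EPB41L4A-AS1 (0.26 against 1.02) and NPPA-AS1 (0.02 against 1.00 for NPPA, the precursor of atrial natriuretic peptide). Their differences from the sense gene were -1.14, -0.78, -0.77 and -0.98, and all 4 passed the test. URB1-AS1 was 5.61, 5.53 and 5.34 in OTX2 KD and 5.66, 5.74 and 5.68 in scramble (-0.20 ± 0.095 (SE), adjusted p = 0.167). URB1 was 5.68, 5.61 and 5.73 in OTX2 KD and 6.75, 6.60 and 6.67 in scramble, and fell by 1.00 ± 0.083 on the log2 scale (adjusted p = 0.000135), so that the difference was 0.80 (95% interval 0.49 to 1.11). The RefSeq starts of both lie in the stretch printed above. The groups of URB1-AS1 did not overlap, but the distance between them was small beside that of URB1.

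The pairs were then set beside the distance between their starts in RefSeq, with a limit of 1000 bases that was chosen after the values were seen. In 31 pairs the starts lay within 1000 bases (35 to 914, median 388), and in 50 they lay farther apart. The log2 fold changes of antisense RNA and sense gene correlated with r = 0.708 (Spearman correlation 0.554) over the 31 close pairs and r = 0.25 (Spearman correlation 0.203) over the 50 distant ones, as a description of pairs measured on the same arrays. With a limit of 500 bases r was 0.663 (Spearman correlation 0.392) for close pairs and 0.385 (0.33) for distant ones, so that by rank they hardly differed. With a limit of 2000 bases these were 0.705 (0.595) and 0.188 (0.144). Without SLC60A1-AS1, which changed most among the close pairs, r was 0.619 (Spearman correlation 0.508) over the other 30, a choice made after seeing the values. The difference between close and distant pairs was not tested.

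By calls, the 31 close pairs held 6 called in the same direction, those of CCNT2, SLC60A1, ZEB2, VLDLR, ARHGAP5 and TMPO, and 1 in opposite directions, LIN28B, whose starts are 438 bases apart. In 10 the sense gene alone was called, in 3 the antisense RNA alone, and in 11 neither. The 50 distant pairs held 7 called in the same direction, 3 in opposite directions, 20 with the sense gene alone, 7 with the antisense RNA alone and 13 with neither. The change was unequal in 15 of the 31 close pairs and in 32 of the 50 distant ones. The 3 pairs with the largest differences among those placed, VPS9D1, PRC1 and THUMPD3, were distant, with starts 9042, 28166 and 33569 bases apart.

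**Figure D5:**
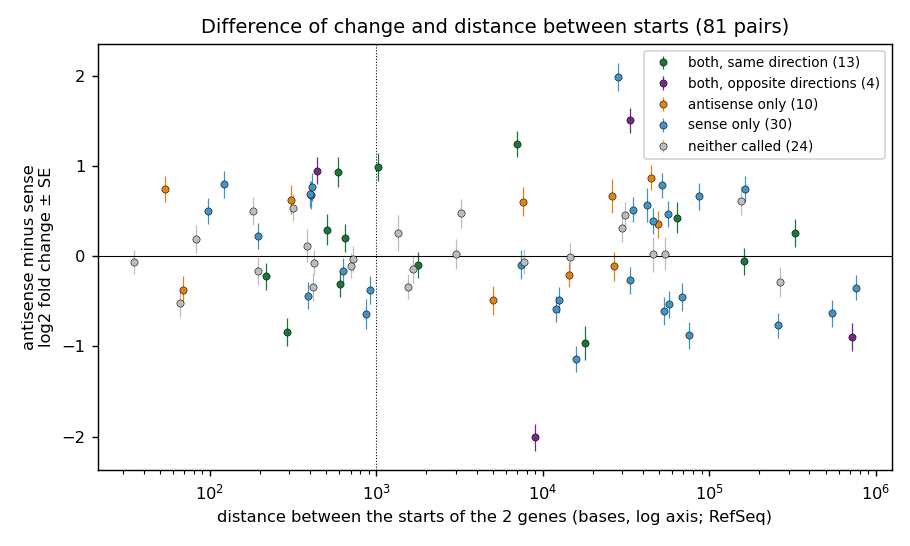
Difference between the log2 fold changes (antisense RNA minus sense gene, error bars 1 SE) against the distance between the starts of both genes on a log axis, for 81 pairs, with a dotted line at 1000 bases. The 31 pairs left of the line lie within 1 log2 unit of 0, and the differences of VPS9D1-AS1 (-2.01), PRC1-AS1 (1.98) and THUMPD3-AS1 (1.51) lie right of it.

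Promoter windows were found for 134 of the 163 antisense RNAs and for 95 of the 112 sense genes. TAATCC or TAATCT was present on either strand in 11 windows of antisense RNAs (8.21%) and in 8 of sense genes (8.42%), beside 12.9% of the 27305 windows of all genes. By call it was present in 3 of 23 windows of antisense RNAs that rose, in 1 of 20 of those that fell and in 7 of 91 of those not called. Where the stretches above hold a match, the change of PSMD6-AS2 was 0.82, that of STARD4-AS1 0.51, that of SVIL-AS1 0.56 and that of MED4-AS1 -1.67. A match is a description of these letters, and binding was not measured on these arrays.

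Genes that handle antisense and other noncoding RNA were described from lists by their calls, beside 39.8% called (16.6% higher and 23.2% lower) over named genes, each by its brightest cluster. Most listed genes lay at 4.0 or more, where 54.8% of named genes were called (21.8% higher and 33% lower). The nuclear RNA exosome and its adaptors degrade many antisense and promoter RNAs, and their list also held the separate exonuclease XRN2. Of its 18 measured genes 8 fell, with XRN2 (-0.43) among them, 1 rose and 9 were not called. Their median log2 fold change was -0.30. The core subunit EXOSC5 fell by 1.52 (6.86 ± 0.17 in OTX2 KD against 8.38 ± 0.066 in scramble, SD, n = 3 each), and EXOSC2 (-1.12), EXOSC9 (-1.03) and the helicase MTREX (-0.55) fell too, while the adaptor RBM7 rose (0.37). Of 11 subunits of the Integrator complex, which ends transcription of noncoding RNAs, 4 fell (INTS5, INTS7, INTS8 and INTS9, from -0.77 to -0.35) and none rose at the adjusted p, with 5 at an unadjusted p below 0.05. Of 5 measured genes of the small RNA pathway, the GW182 proteins TNRC6A (0.66), TNRC6B (0.56) and TNRC6C (1.67) rose and the export factor XPO5 fell (-0.77). A list of 10 measured genes held those that bind or sense double-stranded RNA and the signalling adaptor MAVS. Of these the kinase EIF2AK2 (-0.44) and the receptor TLR3 (-0.38, mean level below 4.0) fell and 8 were not called. The 1 measured RNase H gene, RNASEH1, fell (-0.39). A listed gene, like the cell type markers above, was counted as measured only where a cluster carried its symbol. Of the 53617 clusters, 37519 carried no symbol. These lists were small, and they were described by counts alone.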

How the data were processed

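RNA of D283 tumorspheres was measured on 6 arrays, 3 of OTX2 KD and 3 of scramble, which the study's methods call biological replicates. The sample titles gave the groups and the replicate numbers. The authors deposited RMA values on a log2 scale from Affymetrix Expression Console, in which background-corrected and quantile-normalized probe signals are summarized to 1 value per transcript cluster. Neither hybridization batches nor scan dates are given in the sources used here, and the number of arrays limits the precision. The labelling protocol keeps the strand of the RNA, but probe positions were not compared with the gene models. Levels were used to order clusters by signal and not to compare amounts of RNA, since probes differ between clusters.

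All 53617 clusters were fitted without a filter (limma 3.58.1, R 4.3.3), with two-sided moderated tests of OTX2 KD minus scramble (prior df 3.17, residual df 4) and Benjamini-Hochberg adjustment over all of them. A cluster was called at an adjusted p below 0.05. For each array the sense value was subtracted from the antisense value in all 313 pairs of the annotation, and these differences were tested in the same way, adjusted over the 313 pairs (prior df 13.4). Intervals are 95% intervals of the fit. The procedure was tested on simulated data. RefSeq tables of build GRCh38.p14 were joined by gene ID, which matched 163 of 163 antisense RNAs. Plots used Python 3.11.15 with matplotlib 3.10.9.

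The antisense RNAs, gene lists and tests were chosen with earlier results of these data known. Named were OTX2, pairs called in both RNAs, the 10 largest rises and falls, the 5 brightest, the 3 on each side of the level limit, the largest called changes of each list, and the sense genes of these (92 genes). The other genes named were chosen after their values were seen. OTX2-AS1 was not analysed here. Results were recomputed with median centring, with quantile normalization repeated, with the replicate number as a block, with trend and robust variance, over clusters of mean level 4.0 or more or with 1 symbol only, with a level limit of 5.0, with the mean of a gene's clusters, and without each array in turn.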

Additional observations from a re-analysis of the deposited data

How the results depend on the processing

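Of 59 antisense RNAs called, 42 kept their call and direction under all 6 alternatives of scaling, variance model, tested clusters and replicate block and with any 1 array left out, and 17 lost it in at least 1. In place of 31 antisense RNAs higher and 28 lower, 29 and 23 were called with the replicate number as a block, 42 and 29 in a fit to clusters of mean level 4.0 or more, and 41 and 29 in a fit to clusters with 1 symbol. Pairs called in opposite directions numbered 2 in place of 5 with the block, 7 with trend and robust variance, 7 over clusters of mean level 4.0 or more, and 1 to 3 with an array left out. Values of OTX2 KD and scramble arrays with the same number did not deviate together (r of -0.056, -0.023 and -0.001 for numbers 1, 2 and 3), so that the numbers were not taken as pairs. The median log2 fold change of the antisense RNAs was 0.06, -0.027 after median centring, 0.044 after a repeated quantile normalization, 0.0538 to 0.0792 with an array left out and 0.0797 for a level limit of 5.0. Median centring left 18 sense genes higher in place of 28. In a fit to clusters with 1 symbol 7367 of those clusters were called, because fewer were tested. With the limit of 5.0, which keeps fewer antisense RNAs, 18 were higher and 12 lower, and 7 changed at least 2-fold. The sign of 2 uncalled values near 0 turned with an array left out. MKNK1-AS1 ranged from -0.0718 to 0.0156, above 0 without OTX2 KD replicate 1 (0.0156) or scramble replicate 1 (0.00216). RPH3AL-AS1 ranged from -0.135 to 0.0242, above 0 without OTX2 KD replicate 2 (0.00578) or scramble replicate 3 (0.0242). The cause of these changes was not tested, other than where stated. The background of the arrays was not measured here, so that how far it limits dim clusters is unknown.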
